A study of Mus musculus with 9 samples.

Results

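The domain described here is the stretch of mouse chromosome 15 from 60 to 64 Mb (mm10) that holds Myc and Pvt1. It was divided into 4000 bins of 1 kb, of 2725532 such bins over chromosomes 1 to 19, X and Y, and its members were set by position and not by their reads. The accessible chromatin came from TACh-seq of primary mouse embryonic fibroblasts (MEFs), in which nuclei were digested with the nuclease Cyanase for 3 min and the released short fragments were sequenced. The labels tie all 4 TACh-seq samples to 1 table of read positions. These samples were 2 of WT MEFs and 2 of KOKD MEFs, which lack Fubp1 and received siRNA against Fubp2. Transfection with siRNA at 100 nM for 48 h applied to all 4 samples, with non-target siRNA as the authors' control. The rows of the table name no library, so WT and KOKD were not compared, and it cannot be told apart how much of each pattern below comes from either genotype. FUBP1 binding was given by 1 ChIP-seq peak list of primary MEFs at steady state. RNA came from primary MEFs of Myc-Egfp+/+ mice, whose MYC carries a fluorescent tag. For all RNA samples, cells were exposed for 6 h to the proteasome inhibitor MG-132 at 20 µM, sorted into low-MYC and high-MYC cells and seeded overnight, with 2 technical replicates of each.

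Myc encodes a transcription factor of cell growth and proliferation and lies in a gene desert, with the long noncoding RNA gene Pvt1 next to it. Distal enhancers on both sides of Myc are known to act in different tissues. Nuclease-accessible sites mark promoters, enhancers and other places where proteins occupy DNA in place of a nucleosome. FUBP1 is a single-strand DNA-binding protein known for its binding near Myc. AP-1 is the family of FOS and JUN dimers, and TEAD proteins are the DNA-binding partners of YAP and TAZ. Both families are known at fibroblast enhancers.

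The table held 9828 reads in the domain (exact 95% Poisson interval 9635 to 10024, counting error only) of 218107 on chromosome 15 and 4881417 in all. Reads joined over gaps of up to 600 bp formed 61 islands in the domain, of 1155 on chromosome 15, and every domain island held at least 65 reads. The domain held no scattered reads between these islands. The table therefore lists reads of selected regions, and a bin without reads was not listed rather than shown to be closed. The 3 largest islands that hold no annotated transcript start lay in Pvt1 and far downstream of it. The 300 bases centred on their summits, the points of highest read coverage, are shown first because these islands held the most reads of the domain away from a start. These and all following sequences are the plus strand of GRCm38 (mm10), with matches to AP-1 (TGANTCA) and TEAD (GGAATG) on either strand in capitals.
Island 302 kb downstream of the Myc start, in an intron of Pvt1, chr15:62287308-62287607: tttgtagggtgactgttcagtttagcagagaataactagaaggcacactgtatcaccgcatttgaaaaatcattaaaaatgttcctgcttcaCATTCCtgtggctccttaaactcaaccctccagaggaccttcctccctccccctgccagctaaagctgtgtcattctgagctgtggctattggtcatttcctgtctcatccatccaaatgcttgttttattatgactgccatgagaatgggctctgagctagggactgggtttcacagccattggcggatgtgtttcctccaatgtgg
Island 343 kb downstream, in an intron of Pvt1, chr15:62328293-62328592: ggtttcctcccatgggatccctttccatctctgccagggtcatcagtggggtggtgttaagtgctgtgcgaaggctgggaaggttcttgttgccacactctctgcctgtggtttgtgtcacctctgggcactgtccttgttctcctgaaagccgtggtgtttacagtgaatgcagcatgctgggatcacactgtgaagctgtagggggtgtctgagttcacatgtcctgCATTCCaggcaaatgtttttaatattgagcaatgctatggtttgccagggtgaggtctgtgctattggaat
Island 1355 kb downstream, in an intron of the noncoding gene Gm41335, chr15:63340370-63340669: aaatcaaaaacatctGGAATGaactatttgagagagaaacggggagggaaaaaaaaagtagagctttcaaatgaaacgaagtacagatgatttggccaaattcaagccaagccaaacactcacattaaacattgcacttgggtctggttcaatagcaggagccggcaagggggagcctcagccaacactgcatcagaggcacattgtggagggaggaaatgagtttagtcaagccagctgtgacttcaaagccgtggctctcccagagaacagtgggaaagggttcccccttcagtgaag
Each of these windows held 1 TEAD match and no AP-1 match. The island 302 kb downstream held 603 reads (556 to 653), the one at 343 kb held 478 (436 to 523), and the one at 1355 kb held 342 (307 to 380).

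Summits with 2 or more AP-1 matches were found in 6 of the 61 islands (9.84%), against 6.31% of 1094 islands in the rest of chromosome 15. Among islands without a start the shares were 10.9% of 55 and 9.45% of 614, a share near that elsewhere. Of the 6, 4 are shown next, and the remaining 2 lay 336 kb (in Pvt1) and 1532 kb downstream of the Myc start. A further window, from Pvt1, is shown because it held both motifs. These 5 windows were chosen after their matches were seen.
Island 531 kb upstream of the Myc start, intergenic, chr15:61454089-61454388: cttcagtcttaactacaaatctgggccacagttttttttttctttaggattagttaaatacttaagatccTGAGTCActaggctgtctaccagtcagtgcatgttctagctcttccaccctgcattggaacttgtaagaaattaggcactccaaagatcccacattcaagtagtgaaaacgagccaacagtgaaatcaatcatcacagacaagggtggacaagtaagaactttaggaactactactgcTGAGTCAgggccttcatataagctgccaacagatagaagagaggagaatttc
Island 330 kb upstream, in an intron of the noncoding gene D030024E09Rik, chr15:61654837-61655136: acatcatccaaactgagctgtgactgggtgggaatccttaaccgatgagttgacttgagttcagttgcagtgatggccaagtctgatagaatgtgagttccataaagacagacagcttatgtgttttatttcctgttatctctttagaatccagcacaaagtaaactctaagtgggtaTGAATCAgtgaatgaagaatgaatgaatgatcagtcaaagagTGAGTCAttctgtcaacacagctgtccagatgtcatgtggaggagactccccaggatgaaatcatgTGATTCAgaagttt
Island 13.6 kb downstream, intergenic, chr15:61998829-61999128: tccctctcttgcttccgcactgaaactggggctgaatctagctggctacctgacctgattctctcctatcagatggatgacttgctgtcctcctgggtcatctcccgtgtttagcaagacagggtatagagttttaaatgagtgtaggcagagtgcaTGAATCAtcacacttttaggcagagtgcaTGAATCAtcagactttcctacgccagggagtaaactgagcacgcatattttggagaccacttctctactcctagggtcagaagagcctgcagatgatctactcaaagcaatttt
Island 43.2 kb downstream, intergenic, chr15:62028476-62028775: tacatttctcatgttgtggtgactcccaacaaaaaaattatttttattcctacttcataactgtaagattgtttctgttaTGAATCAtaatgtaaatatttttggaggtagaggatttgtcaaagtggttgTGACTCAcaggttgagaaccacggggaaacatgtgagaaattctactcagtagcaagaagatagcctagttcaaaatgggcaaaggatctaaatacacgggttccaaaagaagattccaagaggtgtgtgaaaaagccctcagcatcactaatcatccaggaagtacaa
Island 134 kb downstream, in an intron of Pvt1, chr15:62119047-62119346: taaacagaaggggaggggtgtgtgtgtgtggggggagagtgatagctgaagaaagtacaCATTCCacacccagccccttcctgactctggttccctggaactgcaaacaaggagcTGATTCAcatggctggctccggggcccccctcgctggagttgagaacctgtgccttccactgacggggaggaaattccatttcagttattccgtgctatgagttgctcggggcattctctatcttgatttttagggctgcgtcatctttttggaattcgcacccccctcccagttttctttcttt
The window 330 kb upstream held 3 AP-1 matches, the windows 531 kb upstream, 13.6 kb downstream and 43.2 kb downstream held 2 each, and the window in Pvt1 held 1 AP-1 and 1 TEAD match. In the window 13.6 kb downstream, both AP-1 matches lay in an exact repeat of 23 bases whose copies started 29 bases apart. No other of the 12 windows examined in this way held an exact repeat of more than 11 bases. The island 43.2 kb downstream was 41.0% interspersed or simple repeat by the soft-masking of the genome, against a median of 14.9% over the 61 islands.

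Most of the domain held no listed reads, and the listed reads were concentrated. Only reads of selected regions were listed, so the shares of empty bins depend on that selection. Of the 4000 bins, 212 (5.30%) held at least 1 read start, against 4.56% of 96660 bins in the rest of chromosome 15 without assembly gaps. Among the 212 bins the median was 30 reads and the highest bin held 402, and 36 bins together held 50% of all reads of the domain. The density over the whole domain was 2.46 reads per kb, against 2.15 in the rest of the chromosome. The domain carried 4.51% of the chromosome's reads on 3.84% of its length. Of the domain reads, 50.5% mapped to the plus strand and 96.7% had the highest mapping score of 42.

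**Figure D1:**
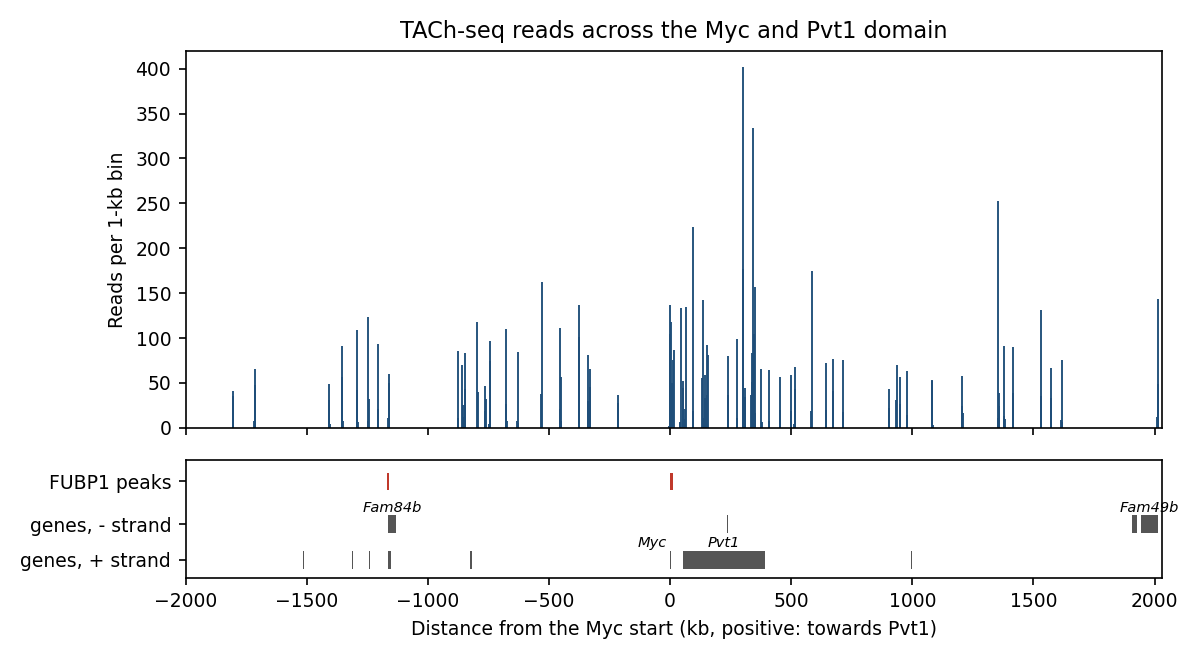
TACh-seq reads per 1-kb bin (upper panel, vertical lines) against distance from the Myc start in kb, with FUBP1 peaks and the genes of the RNA-seq table by strand (lower panel, bars; very short features are widened to be visible). The highest bin holds 402 reads and lies in Pvt1, and a stretch of 212 kb just before the Myc island holds no read.

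The 61 islands covered 153 kb, or 3.82% of the domain. They held 65 to 603 reads with a median of 128 and a mean of 161 ± 106 (SD over 61 islands). Counting error alone at that mean would give an SD of 12.7. The distribution was uneven: 16 islands held under 100 reads, 34 held 100 to under 200, and 11 held at least 200. The 3 largest took 16.6% of the island reads and the 15 largest took 45.0%. By annotation, the summits of 34 islands lay in introns, 22 between genes and 5 in exons of any annotated transcript. The Myc summit, 1.87 kb past the Myc start, was counted as exonic on that rule, but lay in intron 1 as delimited below. Of the intronic summits, 12 lay in Pvt1.

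Islands were most frequent between Myc and the end of Pvt1. Upstream of Myc, 1985 kb held 22 islands, or 11.1 per Mb (exact Poisson 95% interval 6.94 to 16.8). Pvt1, 340 kb long, held 14 islands, or 41.2 per Mb (22.5 to 69.1). Downstream of Pvt1, 1622 kb held 21 islands, or 12.9 per Mb (8.01 to 19.8). The Pvt1 interval did not overlap that of the region upstream of Myc or that of the region downstream of Pvt1, while those of the flanks overlapped each other. In reads, Pvt1 carried 8.73 per kb (8.42 to 9.05), against 1.70 (1.64 to 1.76) upstream of Myc and 1.66 (1.60 to 1.72) downstream of Pvt1. The short interval between Myc and Pvt1 carried 3 islands and 9.85 reads per kb (8.98 to 10.8).

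Myc divided the domain unequally. No island summit lay within 100 kb upstream of the Myc start, against 6 within 100 kb downstream, the Myc island itself not counted. Within 500 kb there were 5 upstream and 20 downstream, and within 1000 kb there were 14 and 29. In all, 22 islands with 3142 reads lay upstream of Myc and 38 with 6136 reads downstream. The nearest upstream island lay 214 kb away and held 65 reads (50.2 to 82.8), which was with 1 other the lowest count of the domain. The largest upstream islands held 259 reads (377 kb upstream, in an intron of D030024E09Rik), 254 reads (745 kb, in an intron of the noncoding gene Gm49497) and 200 reads (531 kb, intergenic). The counting intervals were 228 to 293, 224 to 287 and 173 to 230. Each overlapped the others, and no difference between these islands was tested. The island 453 kb upstream held 197 reads.

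**Figure D2:**
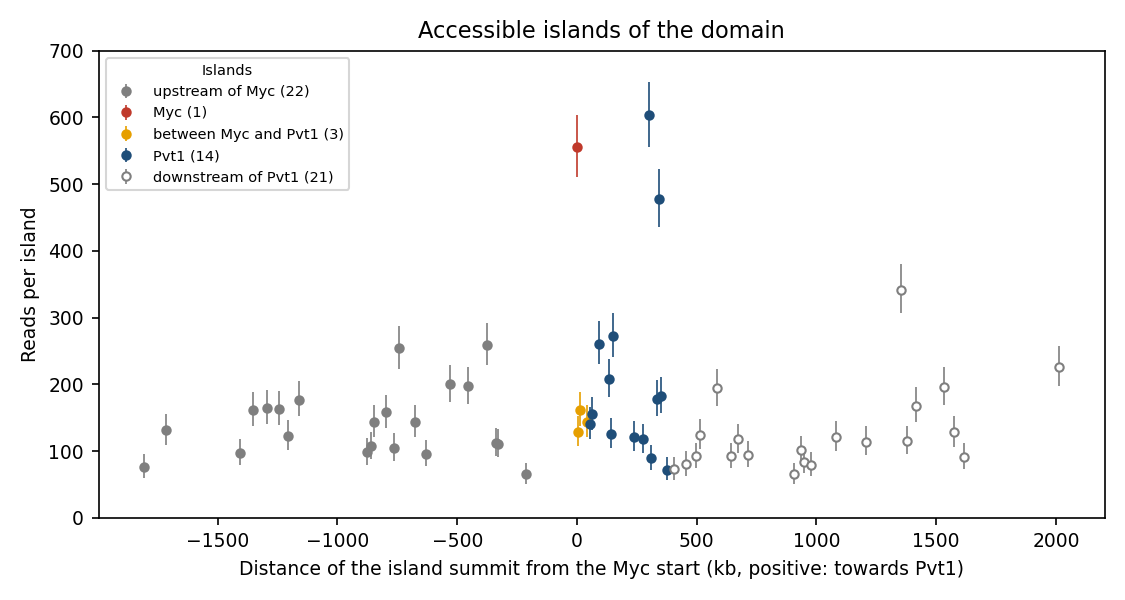
Reads per island against the distance of its summit from the Myc start in kb. Points are the 61 islands, coloured by region with the number of islands in each, and bars are exact Poisson 95% intervals (counting error only). The Myc island and 2 islands of Pvt1 stand above 400 reads, and no other island exceeds 342.

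At Myc itself, 1 island of 6796 bp (chr15:61982983-61989778) held 556 reads (511 to 604), the second count of the domain after the Pvt1 island at 302 kb. Their intervals overlapped. The island began 2408 bp before the Myc start and also covered the start of the annotated transcript Gm37947. Reads were densest around the first exon. The kilobase before the start held 130 reads (109 to 154), exon 1 held 148 reads per kb (118 to 183), intron 1 held 92.6 (78.1 to 109) and exon 2 held 81.6 (62.7 to 104). The density then dropped to 21.6 per kb (13.7 to 32.3) in intron 2 and 7.77 per kb (3.36 to 15.3) in exon 3 up to the gene end. It stood at 84 reads (67.0 to 104) from 2 to 1 kb and at 21 reads (13.0 to 32.1) from 3 to 2 kb before the start.

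Past the Myc end, a shallow second island spread over 4794 bp with 129 reads and a summit depth of only 9 overlapping reads, 6.00 kb from the start. A more compact island followed at 13.6 kb, with 162 reads (138 to 189) in 1468 bp and a summit depth of 31. The kilobase from 8 to 9 kb past the Myc end held 146 reads (123 to 172). This was about the density of Myc exon 1, with overlapping intervals, and the kilobases from 6 to 8 kb past the end held 0 and 2 reads. This compact island is the one whose summit holds the repeated AP-1 match printed above.

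**Figure D3:**
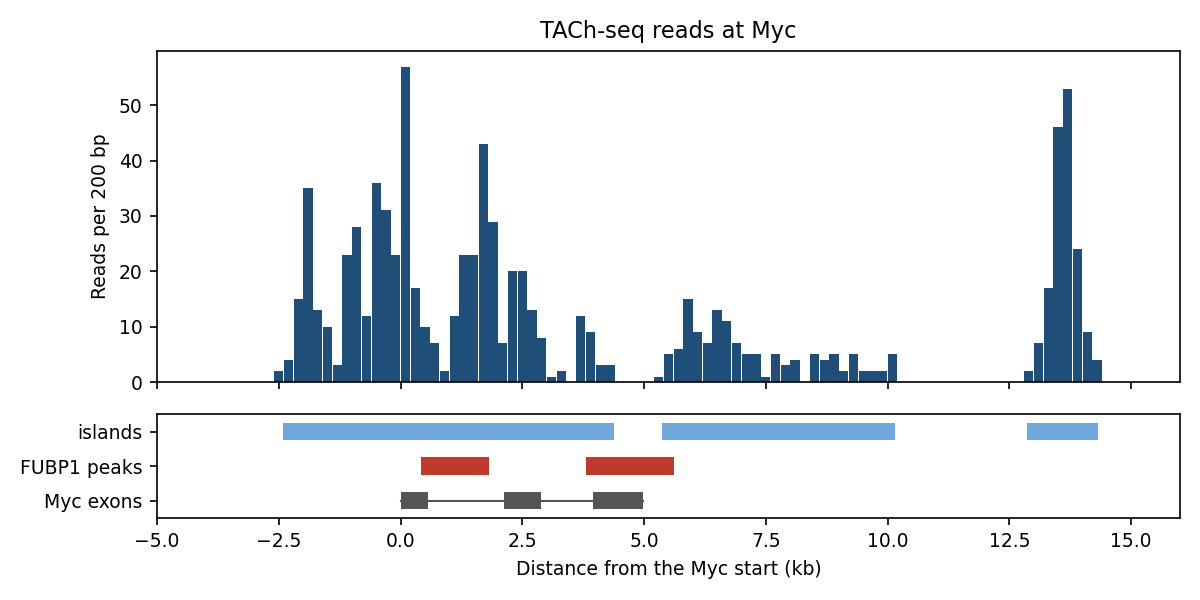
TACh-seq reads in windows of 200 bp against distance from the Myc start in kb (bars), with the islands, FUBP1 peaks and Myc exons below. Reads gather around exon 1, fall to 7.77 per kb in exon 3, and rise again in a compact island 13.6 kb from the start.

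Pvt1 held the largest island of the domain and 6 of its 15 largest. From its 5′ end, the island over the main start (52.6 kb from the Myc start) held 141 reads (119 to 166). The next islands held 155 reads at 63.8 kb, 261 at 94.0 kb over the start of the small RNA gene Gm27782, 208 at 134 kb, 125 at 143 kb and 273 at 152 kb. An island at 237 kb, over an internal Pvt1 start at position 62222603, held 121 reads (100 to 145). The one at 276 kb held 118. The largest island, at 302 kb, ranked 23 of the 1155 islands of chromosome 15, and its summit was covered by 77 reads, against 33 at the Myc summit. It was joined by islands of 89 reads at 308 kb, 178 at 336 kb, 478 at 343 kb and 182 at 349 kb, and the last Pvt1 island, at 376 kb, held 72. The 5 islands from 302 to 349 kb spanned 50.5 kb and took 15.6% of all reads of the domain. This run was delimited after its values were seen. The 2 Pvt1 islands that cover an annotated Pvt1 start, with 141 and 121 reads, were thus near the domain median of 128, and the deep ones lay in introns.

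Downstream of Pvt1 the islands were smaller, with a median of 114 reads (range 65 to 342), against 166.5 (72 to 603) in Pvt1 and 137 (65 to 259) upstream of Myc. The island 1355 kb downstream stood apart with 342 reads, ranking 102 on the chromosome. The next largest held 226 reads over an internal start of Fam49b at the right edge, 196 at 1532 kb in Gm41335 and 194 at 584 kb in the noncoding gene Gm41333. Of the 226 reads, 6 started past 64 Mb.

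Between neighbouring islands the median distance was 37.5 kb, and the longest free stretches held whole genes. The longest, 394 kb, contained the starts of Gsdmc, Gsdmc2, Gsdmc3 and Gsdmc4, gasdermin genes known from epithelial tissue, and no listed read. A stretch of 305 kb lay in the left part of the domain, and one of 284 kb contained A1bg, a plasma protein gene. The stretch of 284 kb also contained the 5′ end of Fam84b, a gene with a mean of 0.878 normalized FPK, and part of 9930014A18Rik. The stretch just before the Myc island was 212 kb long.

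Few of the islands were promoters. Of the 61, 6 (9.84%) covered an annotated transcript start, against 43.9% of the 1094 islands in the rest of chromosome 15. A start of a protein-coding gene with a mean RNA level of at least 0.1 normalized FPK was covered by 3 (4.92%), against 34.9%. These starts belonged to Fam84b, Myc and Fam49b. The island at Fam84b, 1162 kb upstream of Myc, held 177 reads (152 to 205), lay over an internal start at position 60825080, and also covered the start of the noncoding 9930014A18Rik on the other strand. Among 25 windows of 4 Mb along the chromosome, the domain ranked 6 by islands (61, median 45) and 8 by reads (9828, median 7651). It ranked 22 by 5′ ends of such expressed protein-coding genes (2, median 9). The resulting 30.5 islands per expressed gene were the highest among the 23 windows with at least 1 such gene (median 3.44), a ratio that rests on a denominator of 2.

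The sequence of the islands differed from that of other islands. Median GC content was 41.4% in the domain (range 37.3 to 56.2) and 48.5% in the rest of chromosome 15, and the median ratio of observed to expected CpG was 0.146 against 0.261. Among islands without a start the medians were closer, 41.2% GC in 55 domain islands against 44.5% in 614 others, and median reads were 124 against 122. The most GC-rich domain islands were those at Fam84b (56.2%), Myc (53.6%) and Fam49b (51.9%).

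Matches to AP-1 and TEAD were frequent at the summits. AP-1 letters were found in the 300-base summit windows of 31 islands (50.8%), against 32.0% of islands in the rest of the chromosome and 9.43% of 4000 windows of 300 bases, 1 in the middle of each bin of the domain. TEAD letters were found in 26 (42.6%), against 26.1% and 17.2%. Either was found in 46 islands, against 25.1% of the domain windows, and both in 11, of which 1 had matches that shared bases. Among islands without a start the shares were closer, 54.5% against 49.0% for AP-1 and 43.6% against 34.4% for TEAD. The GC-box (GGGCGG) was found in 3.28% of the domain islands, 33.1% of the others and 1.40% of the domain windows. The E-box that MYC is known to bind (CACGTG) was found in 4.92%, 6.03% and 2.40%. A CTCF core consensus was found in 0%, 1.65% and 0.075%. Among islands without a start the GC-box shares were closer, 1.82% of 55 domain islands against 8.96% of 614 others. These are shares of letter matches, which say nothing on which protein was bound.

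**Figure D4:**
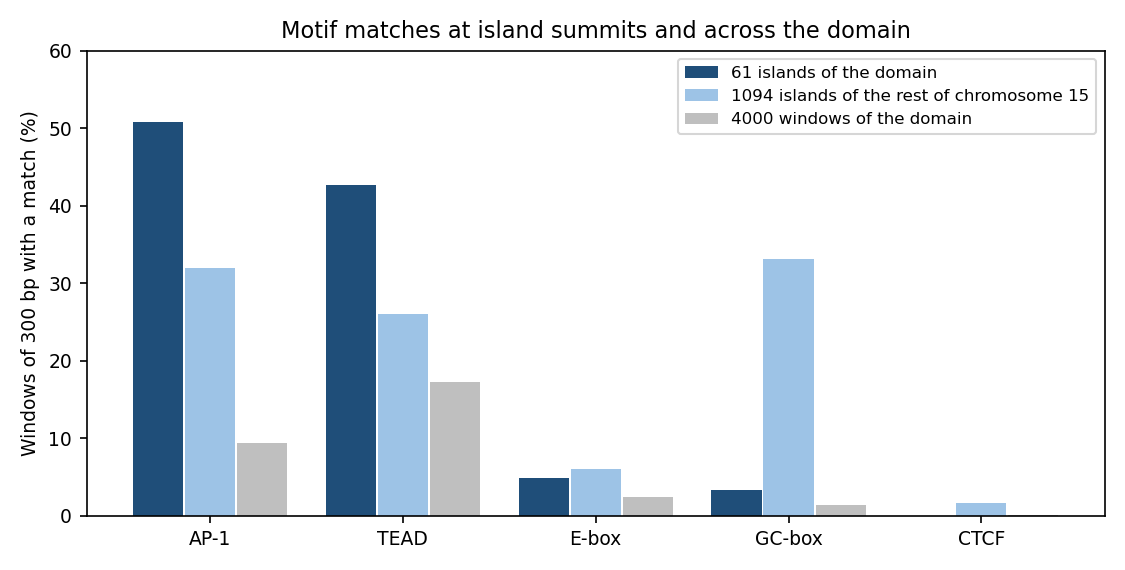
Share of 300-bp windows, in percent, with a match to each motif on either strand, for summits of the 61 domain islands, summits of the 1094 other islands of chromosome 15, and 4000 windows of the domain. AP-1 letters occur at 50.8% of domain summits against 9.43% of domain windows, and GC-box letters at 3.28% of domain summits against 33.1% of other summits. Among islands without a transcript start, the GC-box shares are 1.82% and 8.96%.

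Between regions of the domain the counts of islands with a motif were small, and no difference was tested. AP-1 was found in 50.0% of 22 islands upstream of Myc, 42.9% of 14 in Pvt1 and 52.4% of 21 downstream of Pvt1. TEAD was found in 36.4%, 64.3% and 42.9%. Of the 15 largest islands, 6 held AP-1 and 7 held TEAD. Those 6 with AP-1 held 182 to 208 reads, and no larger island held AP-1. The Myc summit, 1.87 kb past the Myc start, held neither motif.

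FUBP1 peaks met the accessible chromatin of the domain only at Myc. Of 166 peaks on chromosome 15, 3 lay in the domain. The first Myc peak (chr15:61985801-61987200) reached from 410 to 1809 bp past the Myc start, within exon 1 and intron 1, lay wholly inside the Myc island and held 122 reads, or 87.1 per kb (72.4 to 104). The second (chr15:61989201-61991000) reached from 3810 bp past the start, in intron 2, to 626 bp past the Myc end and held 21 reads (13.0 to 32.1), or 11.7 per kb. It bridged the end of the Myc island and the start of the next, with 829 of its 1800 bp in islands. No listed peak covered the 2408 bp of accessible chromatin before the start. The paper describes a local maximum of FUBP1 binding upstream of the Myc start, where no peak was listed. The remaining peak (chr15:60817001-60820000), 3000 bp over the 3′ end of Fam84b, held no reads and ended 1732 bp short of the Fam84b island.

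Of the 8 bins that overlap a FUBP1 peak, 5 held reads, 353 reads in all (3.59% of the domain). On the whole chromosome, 175 of 909 such bins (19.3%) held reads, against 4.59% of all bins, and 43 of the 166 peaks (25.9%) overlapped an island, 27 of them one with an expressed protein-coding start. In the domain 2 of 61 islands overlapped a peak (3.28%), against 3.47% of the other islands. The remaining 59 islands, those of Pvt1 included, overlapped no listed peak. The peak list gives positions only, so binding below its threshold was not measured. The paper reports that its FUBP1 ChIP antibody partly cross-reacts with FUBP2, and a share of FUBP2 in these peaks was not tested.

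More of the fibroblast genes than of the genes of other lineages had listed reads at their starts. Starts without listed reads were not shown to be closed. Within 1 kb of their starts, 10 of 12 fibroblast genes held reads (Dcn and Lum held none), against 1 of 12 macrophage genes (Cd68), 1 of 5 epithelial genes (Krt19) and 0 of 4 endothelial genes. In the RNA, fibroblast genes summed to 405 and 412 normalized FPK in the low-MYC replicates and 986 and 1016 in the high-MYC replicates. The 12 macrophage genes summed to 0.627 and 0.874 against 27.3 and 28.6, with C1qa and Adgre1 listed at 0 in a low-MYC library, and their part in the differences below was not tested.

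The RNA table listed 12 genes that overlap the domain, and islands at annotated starts, internal ones included, separated them in part. Normalized FPK, fragments per kilobase divided by a spike-in score, are relative to cell number. Myc, at 9.81 and 9.86 in the low-MYC replicates and 20.3 and 20.5 in the high-MYC replicates, was by far the highest. Of the 5 genes whose mean reached 0.1, 4 had an annotated start in an island, Fam84b, 9930014A18Rik, Myc and Fam49b. The exception was Tsg101-ps, a processed pseudogene without a read, whose RNA value may include reads of its parent gene Tsg101. Of the 7 genes under 0.1, Pvt1 was the exception in the other direction. It held 2970 reads of accessible DNA and 7 of 10 annotated starts in islands, at 0.0153 and 0.0159 normalized FPK in low-MYC and 0.0310 and 0.0317 in high-MYC cells. The other 6 (Gm6392, Gm48946, Gm7086, Gm38563, H2afy3 and Gsdmc4) held no reads and reached at most 0.0801 in any library. By gene bins, 68 of 498 bins over these 12 genes held reads (13.7%), against 144 of 3502 others (4.11%), and the gene bins held 38.4% of the reads. Most of this was Pvt1, with 53 of 342 bins (15.5%) and 30.5% of the reads. The gene bins without it held reads in 15 of 156 (9.62%) and 7.90% of the reads.

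**Figure D5:**
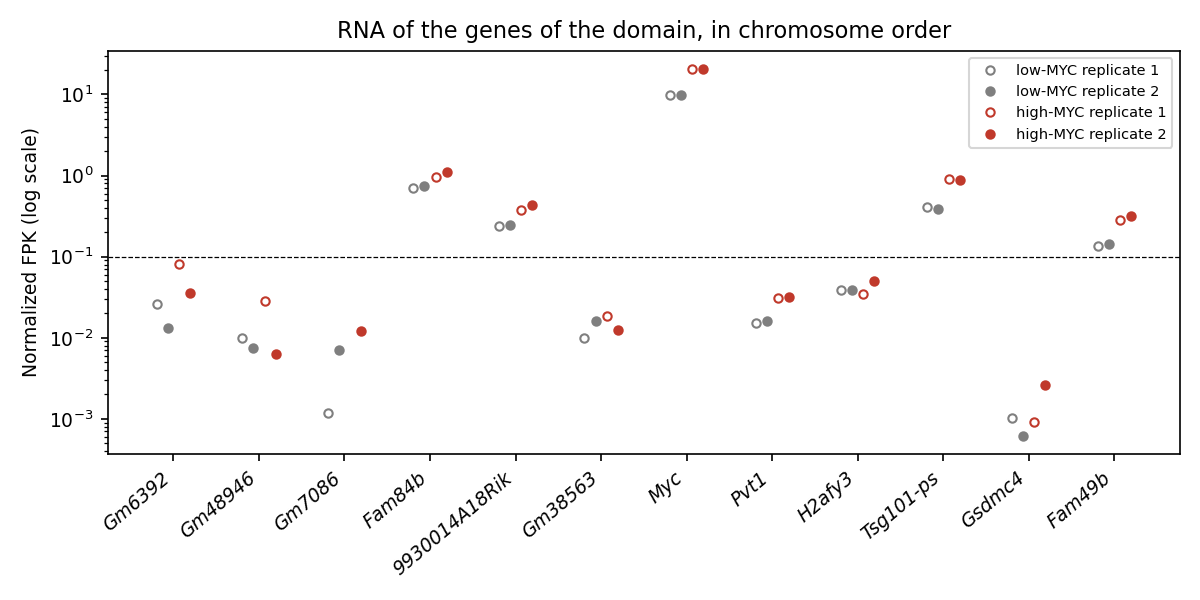
Normalized FPK (log scale) of the 12 genes of the domain in each of the 4 RNA-seq libraries, in chromosome order. Grey points are low-MYC and red points high-MYC replicates, and the dashed line marks 0.1. Gm7086, listed at 0 in high-MYC replicate 1, has no point there, and Myc is the highest of the 12 genes in every library.

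Between high-MYC and low-MYC cells, all 5 genes tested were higher in high-MYC cells. This matched the background, since 97.1% of 11870 genes tested were called higher (limma, Benjamini-Hochberg adjusted p under 0.01) and the median difference of all genes was 1.03 on the log2(normalized FPK + 0.1) scale. Both high-MYC libraries lay above both low-MYC libraries for 99.0% of all genes tested, so this separation is also no feature of the domain. The replicates are technical, and the p-values measure only the spread between these libraries. In such bulk samples a change in cell makeup and a change in RNA per cell cannot be told apart.

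Myc differed by 1.04 ± 0.04 (SE, limma adjusted p = 1.04e-05), close to the median gene. Tsg101-ps rose from 0.414 and 0.383 to 0.897 and 0.890 normalized FPK, a difference of 1.00 ± 0.06 (limma adjusted p = 1.81e-05). Fam49b, known to restrain RAC1 signalling, rose from 0.134 and 0.142 to 0.286 and 0.315, a difference of 0.75 ± 0.06 (limma adjusted p = 8.35e-05) that was 1.07 at a pseudocount of 0.01. On this scale the genes of the Fam84b island showed the smallest differences, an order that depends on the pseudocount. At a pseudocount of 1 the difference was 0.24 for Fam84b, 0.18 for 9930014A18Rik and 0.19 for Fam49b. The ratio of group means, which uses no pseudocount, was 1.43 for Fam84b, 1.67 for 9930014A18Rik, 2.07 for Myc, 2.18 for Fam49b and 2.24 for Tsg101-ps. Fam84b went from 0.704 and 0.740 to 0.970 and 1.10, a difference of 0.46 ± 0.07 (limma adjusted p = 0.00119). At the pseudocount of 0.1, this difference was larger than that of only 1.77% of genes. The noncoding 9930014A18Rik, which overlaps Fam84b on the opposite strand, went from 0.237 and 0.247 to 0.373 and 0.434, a difference of 0.56 ± 0.08 (limma adjusted p = 0.000715), at percentile 3.56. The kit marks strand, but whether the quantification used it is not given in the sources used here, so reads of this overlapping pair may be shared. Relative to the median gene, Fam84b lay lower in high-MYC cells, at -0.60 after each library was scaled to the same median (limma adjusted p = 0.00700), while Myc stood at -0.13 (limma adjusted p = 0.105). Just outside the domain, Asap1 on the right differed by 0.83 ± 0.06 (limma adjusted p = 5.61e-05), and the noncoding Gm19510 on the left was below the minimum, at 0.00200 and 0.00534 against 0.00746 and 0.00844.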

How the data were processed

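TACh-seq reads of primary MEFs were trimmed and aligned to mm10 with Bowtie2 by the authors, and regions were called with SICER. The deposited table lists read positions with a mapping score per read and names no library, so the design's per-sample comparison of WT and KOKD was not analysed here. The deposited FUBP1 list, called by the authors with SICER (200-bp windows) against input, gives positions only. The deposited RNA values are a signal, FPK divided by the authors' spike-in score (TopHat, Partek). RNA depth is unknown. The domain, gene lists and tests were chosen with earlier results of these data known.

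Each read was placed by its start. Islands were reads joined over gaps of up to 600 bp, with at least 10 reads. Read intervals cover counting error only, and reads sharing a 5′ end (28.2% in the domain) were kept. Genes are GENCODE M21, sequences NCBI GRCm38.p6. Coordinates are 1-based. Genes with a mean of at least 0.1 normalized FPK were compared on log2(normalized FPK + 0.1) with limma 3.58.1 (trend) in R 4.3.3, Benjamini-Hochberg adjusted and called under 0.01. Procedures were tested on simulated data in which few genes changed and islands were evenly spaced. Such data are unlike those here, so these tests checked the code and not the calls. Genes of the RNA table in the domain and its nearest neighbours were named, with the 15 largest islands and those at Myc, Pvt1, starts or FUBP1 peaks. Others were named after their values were seen. Python 3.11.15, numpy 2.4.6, pandas 2.3.3 and scipy 1.17.1 were used.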

Additional observations from a re-analysis of the deposited data

How the results depend on the processing

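With 1 read kept per start and strand, the domain held 8767 reads in place of 9828. With 500-bp bins 353 of the bins held reads (4.41%) and with 2-kb bins 132 (6.60%), in place of 212 of 1-kb bins. The other choices of gap (60 to 69 islands), minimum reads, mapping score and read end kept these counts within 1.5 times, as did those for the FUBP1 bins (4 to 7). The choices of minimum reads per island could not change the island count, since every domain island held at least 65 reads. For the RNA, 5 of 5 domain genes were called higher without each library in turn (5 to 5), where the lone library is assumed to vary like the other group's pair and nearly all genes are called, so this count says little on stability. All 5 were also called at pseudocounts of 0.01 and 1, and 1 of 1 at a minimum mean of 1. With the replicate block 5 were called and no call changed. The numbers mark technical replicates and do not pair cells, and the deviations of same-numbered libraries correlated at 0.081 over the tested genes. Without a minimum mean, 6 of 12 were called higher, the added one being Pvt1, against 14232 of all 19769 genes.

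With the libraries scaled to a common median, 0 of 5 were called higher and 1 lower. Of all 11870 genes tested, 209 were called higher and 63 lower with this scaling. Over the alternatives other than scaling, the log2 differences ran from 0.19 to 1.07 for Fam49b, 0.18 to 0.71 for 9930014A18Rik, 0.44 to 1.15 for Tsg101-ps, 0.24 to 0.54 for Fam84b, 0.33 to 0.98 for Asap1 and 0.98 to 1.05 for Myc, lowest at a pseudocount of 1. With the common median they were -0.60 for Fam84b, -0.34 for 9930014A18Rik, -0.13 for Myc, -0.011 for Tsg101-ps, -0.038 for Fam49b and -0.15 for Asap1. This scaling removes the median difference by construction. The depth of a single table without replicates limits the island counts to their counting error, and spread between cultures was not measured.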
